A study of Mus musculus with 24 samples.

Results

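Irradiated mouse lung that had received no drug was compared with untreated mouse lung, on 4 of the 24 samples of a study of drugs given with irradiation. The members were taken by title: the arrays Irradiation 1 and Irradiation 2, from irradiated mice, and untreated 1 and untreated 2, titled ctrl, from mice given neither irradiation nor drug. All 4 lungs belong to a single time point, 24 days after irradiation, and the labels call the 2 arrays of a group biological replicates. The other 20 samples are 10 groups of 2 with Ly, Imatinib or Su, or with Ly and 1 of the other compounds, each with and without irradiation. The strain, age and sex of the mice, the radiation dose and the part of the body irradiated were not given in the sources used here. Each sample is bulk RNA from frozen lung tissue, hybridised in 1 colour to an Agilent whole-genome oligonucleotide array.

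Ionising radiation breaks DNA and activates p53, which switches on genes for cell cycle arrest, DNA repair and cell death. In the lung of mice given a damaging dose to the chest, an early inflammatory phase with recruited and lipid-laden macrophages can be followed by fibrosis, in which fibroblasts stimulated by TGF-beta, PDGF and other growth factors lay down collagen. Chemokines draw monocytes from the blood, and acute-phase proteins, made chiefly by the liver but also by epithelium and macrophages, rise in inflammation. The study's title names inhibition of the TGF-beta and PDGF pathways, so the comparison without drug gives the response to which the drug groups are set.

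Levels below are log2 signals relative to the 75th percentile of the same array, so that 0 is the signal at that percentile. They are compared between arrays for 1 gene, never between genes, since each probe has its own brightness. A difference is the mean of the irradiated arrays minus the mean of the untreated arrays on this log2 scale. Its standard error is that of the limma fit. The n is 2 arrays in each group, except in fits without 1 array, which leave 1 in its group. A gene was tested if it was well above background on both arrays of at least 1 of the 12 groups. A gene at background in untreated lung could thus enter through a group where it was high. A gene was called changed at a Benjamini-Hochberg adjusted p under 0.05 over all genes tested.

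Irradiation 1 stood apart from the other arrays of the series. Its 75th percentile was 2518 intensity units, against 704 to 1768 on the other 23 arrays, and its added spike-in control RNAs gave a mean log2 signal of 8.51, against 9.18 to 10.67. Relative to the 75th percentile the spike-in mean was -2.79, against -1.4 to 0.503. The median signal of its negative control spots was 12.4, against 2.65 to 8.89. The share of its spots well above background, 65.0%, lay within the range of the other arrays, 62.0% to 78.5%. The replicates of the Irradiation group differed by a median of 0.454 (log2) over the genes tested, the untreated replicates by 0.213, and those of the other 10 groups by 0.0934 to 0.259. Irradiated lungs without drug lay on a slide of their own with the Irradiation and Ly group, and untreated lungs on a slide with the Ly group, so slide and irradiation cannot be told apart. The type II cell gene Sftpc, the club cell gene Scgb1a1, the type I cell gene Ager and the endothelial gene Pecam1 were well above background on all 4 arrays.

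Of 20409 genes tested, 2937 were called (14.4%): 1450 were higher (7.1%) and 1487 lower (7.29%) in irradiated lung. That count rests on the spread estimated from all 24 arrays. With limma run on the 4 arrays alone it was 0, with 1979 genes at an unadjusted p under 0.05, and with weights given to the arrays it was 1, with 2658 at that unadjusted p. It fell to 165 without Irradiation 1 and rose to 8618 without Irradiation 2, where the remaining irradiated array is assumed to vary like the other groups. No exact permutation test of 2 against 2 arrays can give a p under 0.333. In 10005 genes (49%) the irradiated and untreated arrays did not overlap. Among the 2937 called genes 2936 did not overlap, so non-overlap of a called gene adds nothing to its call. Of the 1450 higher genes, 208 were not well above background on either untreated array. The counts of list members given below are to be read beside 7.1% higher and 7.29% lower over all genes.

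**Figure D1:**
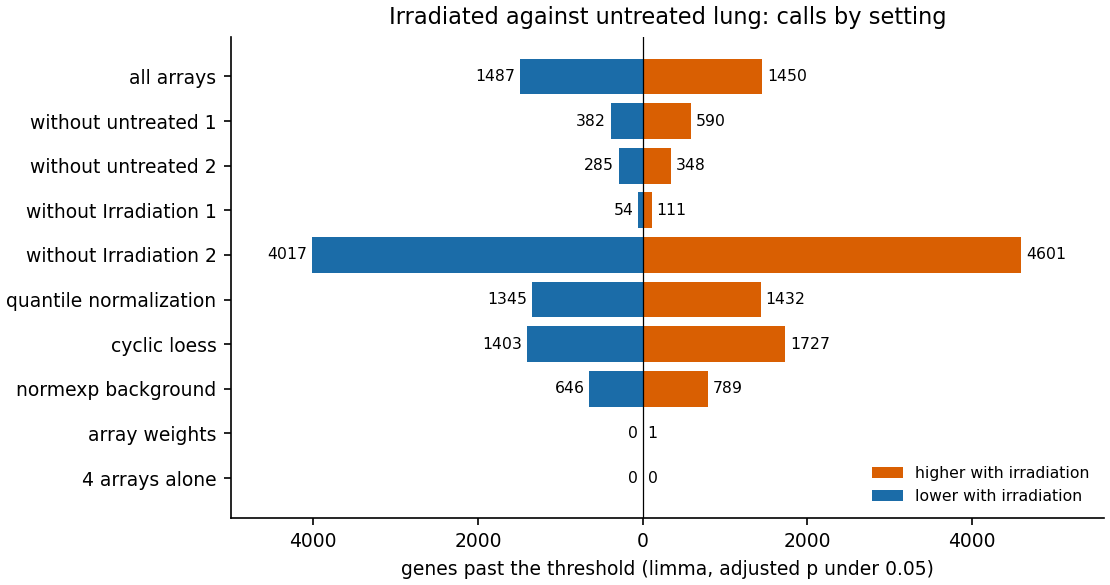
Genes called higher (right, orange) and lower (left, blue) in irradiated than in untreated lung under each setting; the bar length is the number of genes past an adjusted p under 0.05 in limma. The calls range from 0 with the 4 arrays alone to 8618 without Irradiation 2, against 2937 with all arrays.

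The difference was larger on Irradiation 1 than on Irradiation 2 for most genes. Over all genes tested, the median size of the difference from the untreated mean was 0.527 (log2) on Irradiation 1 and 0.228 on Irradiation 2. Among the called genes it was 1.18 and 0.540, and 2682 of the 2937 (91.3%) differed more on Irradiation 1. To see which calls rest on no particular array, the fit was repeated without each of the 4 arrays. Each such fit leaves 1 array in a group, and the spread comes from the groups that keep 2. The Irradiation replicates differed by a median of 0.454, the other groups by 0.0934 to 0.259. The p-values of those fits may therefore be too small, and they are not replicated tests. In all 4 of those fits, 100 genes (0.49% of those tested) stayed past the threshold, 72 higher and 28 lower, of which 64 and 15 have a gene symbol. These are called firm below; their median difference was 1.81 in size on Irradiation 1 and 1.32 on Irradiation 2. Of the 72 firm genes that rose, 18 were not well above background on either untreated array.

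**Figure D2:**
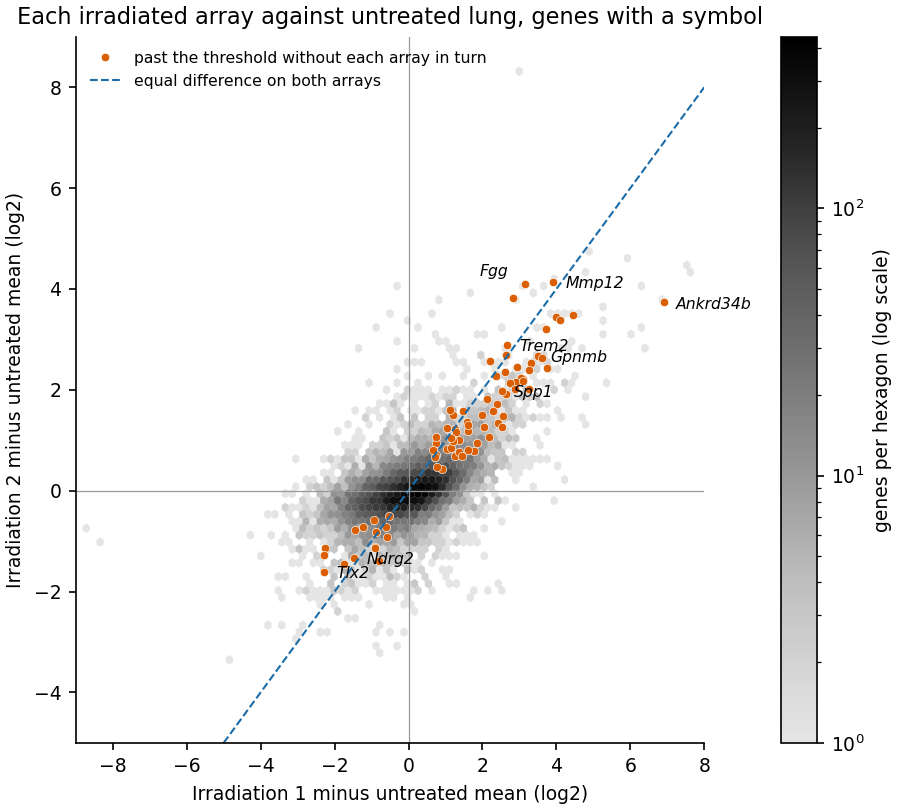
Difference from the untreated mean (log2) on Irradiation 1 (x axis) and Irradiation 2 (y axis) for the 15965 genes tested that have a symbol, shaded by the number of genes per hexagon, with the 79 firm genes in orange. Most shaded genes spread further along the x axis than the y axis, while Mmp12, Fgg and Trem2 lie at or above the dashed line of equal difference.

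Genes of macrophages that take up and digest lipid and cell debris were the list with the most firm members, 8. Mmp12, the macrophage elastase, was at -4.79 and -5.88 in the untreated lungs and at -1.43 and -1.19 on Irradiation 1 and Irradiation 2. It rose by 4.02 ± 0.42 (log2 difference ± SE), or 16.2-fold (limma adjusted p = 0.000691, and 0.00562 without Irradiation 1); 1 of the 2 untreated arrays was not well above background for it. Gpnmb, a glycoprotein of lysosome-rich macrophages, was at -2.18 and -1.9 in untreated lung and at 1.46 and 0.63 after irradiation. Trem2, a lipid-sensing receptor of macrophages, went from -1.76 and -1.56 to 1.0 and 1.23. For these 3 genes every irradiated array lay far above every untreated array, and for Mmp12 and Trem2 the irradiated arrays lay within 0.24 of each other. Gpnmb rose by 3.08 ± 0.33 (adjusted p = 0.000691) and Trem2 by 2.78 ± 0.36 (adjusted p = 0.00189).

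Spp1, which encodes the secreted matrix protein osteopontin, was at 4.79 and 4.58 in untreated and at 7.2 and 6.67 in irradiated lung, a rise of 2.25 ± 0.27 (adjusted p = 0.00148). Smaller rises were seen in genes of the lysosome and of cholesterol transport. The lysosomal protease gene Ctsd was at 5.25 and 5.28 before and 6.54 and 6.43 after, a rise of 1.22 ± 0.19. Cd63, a membrane protein of late endosomes, rose by 0.94 ± 0.13, Apoe, which carries lipid out of macrophages, by 0.84 ± 0.14, and Abca1, the cholesterol exporter, by 0.98 ± 0.16. Their adjusted p-values were 0.00292 for Cd63 to 0.00633 for Apoe, and 0.0266 for Apoe to 0.0468 for Ctsd without Irradiation 1. The arrays of the 2 groups did not overlap for any of these 5 genes, as for 2936 of the 2937 called genes and 49% of all genes.

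In all, 18 of 27 tested genes of the lipid-handling list rose and 0 fell, beside 7.1% and 7.29% of all genes; 8 were firm and 25 were well above background on all 4 arrays. The list's median difference was 0.98, beside -0.0049 over all genes tested, and it was 1.26 on Irradiation 1 and 0.94 on Irradiation 2. The number that rose was 8 without Irradiation 1, 21 without Irradiation 2, 15 without untreated 1 and 11 without untreated 2. Besides the firm members, Ctsk, a protease of macrophages and osteoclasts, rose by 2.64 ± 0.54, the scavenger receptor gene Msr1 by 2.54 ± 0.65, the proton pump subunit gene Atp6v0d2 by 2.01 ± 0.38 and the cholesterol exporter gene Abcg1 by 1.1 ± 0.19. Ctsk, Msr1, Atp6v0d2 and Abcg1 lost the call without Irradiation 1 (adjusted p = 0.0648 to 0.224), Msr1 without untreated 1 (adjusted p = 0.0964) and Ctsk, Msr1 and Atp6v0d2 without untreated 2 (adjusted p = 0.0548 to 0.0833). Members that did not pass included Lipa, the lysosomal acid lipase gene, at 0.45 ± 0.24, the fatty acid receptor gene Cd36 at -0.071 ± 0.16 and Pparg, a regulator of lipid storage, at 0.47 ± 0.16.

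**Figure D3:**
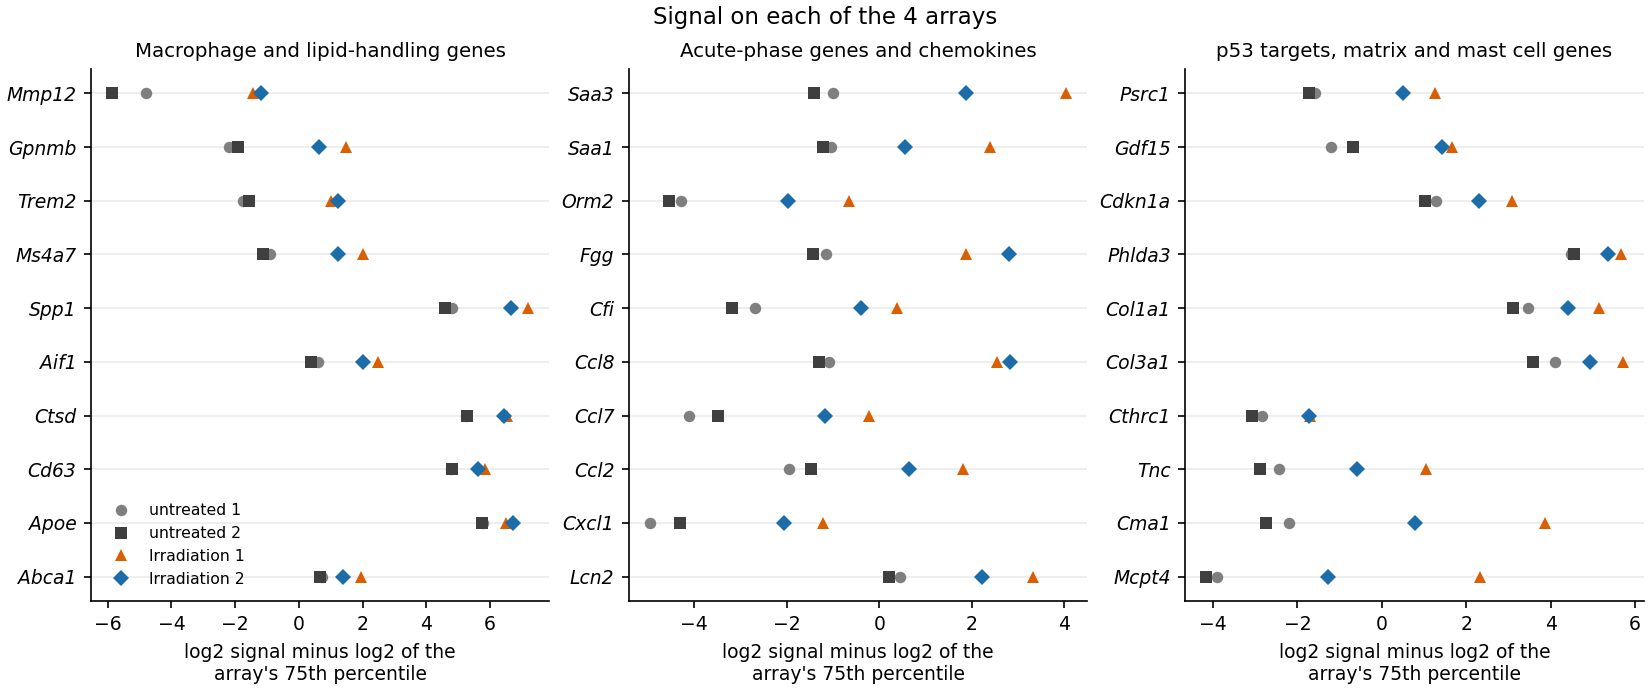
Level (log2 signal minus log2 of the array's 75th percentile, x axis) of 30 genes on untreated 1 and 2 (grey and black) and Irradiation 1 and 2 (orange and blue), 1 point per array. Trem2 and Mmp12 lie close together on both irradiated arrays, whereas Saa3, Cma1 and Mcpt4 lie much higher on Irradiation 1 than on Irradiation 2.

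The promoter of Ctsd is shown because the E-box CACGTG is the core of the element through which TFEB, TFE3 and MITF act on lysosomal genes, and it carries 2 of them. It is the 250 bases before the start site in RefSeq's GRCm38.p6 (chr7:142387828-142388077, - strand), 5′ to 3′, with the matches in capitals.
Ctsd: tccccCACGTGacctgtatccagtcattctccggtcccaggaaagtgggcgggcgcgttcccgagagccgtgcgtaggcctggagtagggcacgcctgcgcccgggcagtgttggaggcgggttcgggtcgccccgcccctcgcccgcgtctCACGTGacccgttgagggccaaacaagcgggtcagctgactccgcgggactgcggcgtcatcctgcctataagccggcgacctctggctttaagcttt
The search covered both strands of 300-base windows, 250 before to 50 after each start; CACGTG reads the same on either strand. Of the 18 lipid-handling genes that rose, 14 were matched to a promoter and 3 held CACGTG (21.4%), namely Ctsd, Plin2 and Abca1, beside 7.15% of all 32851 windows. The letters show a match and not a bound site. The share for the list counts genes, whereas the share of all windows counts windows. A gene may have several starts and so several windows. Shares of genes and of windows, here and in the searches below, are therefore not like for like.

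General macrophage and monocyte markers rose in part, 48.1% of those tested beside 7.1% of all genes. Ms4a7, a membrane gene of tissue macrophages derived from monocytes, was at -0.91 and -1.12 in untreated lung and at 2.02 and 1.23 after irradiation, a rise of 2.64 ± 0.39 (adjusted p = 0.0036). Aif1, the calcium-binding protein of macrophages also known as Iba1, was at 0.59 and 0.39 and then at 2.48 and 2.0, a rise of 1.75 ± 0.19 (adjusted p = 0.000953). Both genes were firm. The genes of complement C1q, which macrophages make, rose by 1.78 ± 0.32 for C1qc, 1.67 ± 0.38 for C1qa and 1.36 ± 0.40 for C1qb, and Cd68, a lysosomal marker, by 1.6 ± 0.31. C1qa, C1qb, C1qc and Cd68 lost the call without Irradiation 1 (adjusted p = 0.0734 to 0.129), C1qa and C1qb without untreated 1 (adjusted p = 0.0546 to 0.102), C1qa and C1qb without untreated 2 (adjusted p = 0.0869 to 0.155) and C1qb without Irradiation 2 (adjusted p = 0.0973).

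Of 27 tested markers of macrophages and monocytes 13 rose and 1 fell, with a median of 0.96; the count that rose was 2 without Irradiation 1, 14 without Irradiation 2, 7 without untreated 1 and 5 without untreated 2. Several markers carried by most lung macrophages or monocytes did not pass: Csf1r, the receptor for the macrophage growth factor, was at -0.20 ± 0.21, Siglecf, a marker of resident alveolar macrophages, at 0.28 ± 0.20, Mertk, a receptor for dying cells, at 0.21 ± 0.11, Lyz2, lysozyme, at -0.60 ± 0.22 and Ccr2, the receptor of inflammatory monocytes, at 0.72 ± 0.52. A second probe for Lyz2 was called, in the opposite direction. Lyve1, borne by lymphatic vessels and by a class of interstitial macrophages, fell from 4.0 and 3.65 to 2.62 and 2.48, a change of -1.28 ± 0.29 (adjusted p = 0.0154). In bulk tissue, more cells of a type and more RNA of a gene per cell cannot be told apart. Retnla, a gene of alternatively activated macrophages and airway epithelium, was at 2.82 and 2.9 in untreated lung and at 6.05 and 5.85 after irradiation, nearly the same rise on both arrays, 3.09 ± 0.89 (adjusted p = 0.0358). Lyve1 and Retnla lost the call without Irradiation 1 (adjusted p = 0.0989 to 0.218), both without untreated 1 (adjusted p = 0.0788 to 0.106) and Retnla without untreated 2 (adjusted p = 0.135). Clec10a, a lectin of macrophages and dendritic cells, was firm and rose by 1.4 ± 0.20 (adjusted p = 0.00292).

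Chemokine genes rose on both irradiated arrays, though none was firm. Ccl8, a CC chemokine, was at -1.08 and -1.31 in untreated lung and 2.55 and 2.82 in irradiated lung. The gap was as large on Irradiation 2 as on Irradiation 1, and the rise was 3.88 ± 0.76 (limma adjusted p = 0.00972). Ccl7, Ccl2 and Ccl12, ligands of the monocyte receptor CCR2, rose by 3.1 ± 0.54, 2.93 ± 0.47 and 2.56 ± 0.47. Cxcl1, a neutrophil attractant, was at -4.96 and -4.3 and then at -1.21 and -2.06, a rise of 3.0 ± 0.47 (adjusted p = 0.00466). Cxcl9 and Cxcl10, which are induced by interferon, rose by 2.87 ± 0.69 and 2.6 ± 0.50. The arrays of the 2 groups did not overlap for these 7 genes, as for 2936 of the 2937 called genes and 49% of all genes. Il6 and Cxcl5 were not well above background in either untreated lung and were each at least 3.95-fold higher after irradiation (adjusted p = 0.0121 and 0.0306); without Irradiation 1 the bounds were 2.07-fold and 1.31-fold, and with the normexp background correction Il6 changed sign.

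Of 29 tested cytokine and chemokine genes 18 rose and 0 fell, and 24 had both irradiated arrays above both untreated arrays, as had 22.5% of all genes. Their median was 1.26, and it was 1.66 on Irradiation 1 and 1.27 on Irradiation 2. The count that rose was 0 without Irradiation 1, 19 without Irradiation 2, 12 without untreated 1 and 7 without untreated 2, 7 with normexp, and none of the 18 was firm. Ccl8, Ccl7, Ccl2, Ccl12, Cxcl1, Cxcl9, Cxcl10, Il6 and Cxcl5 lost the call without Irradiation 1 (adjusted p = 0.055 to 0.357), Cxcl5 without untreated 1 (adjusted p = 0.123) and Ccl8, Cxcl9, Il6 and Cxcl5 without untreated 2 (adjusted p = 0.0536 to 0.126). Tnf was at 0.22 ± 0.34, Il1b at -0.80 ± 1.01 and the T cell attractant Ccl5 at -0.053 ± 0.45, none of which passed. Of 34 genes of the interferon response 7 rose, with a median of 0.35, and the count was 0 without Irradiation 1, 13 without Irradiation 2, 1 without untreated 1 and 7 without untreated 2. With all arrays 20.6% of the interferon list rose, beside 7.1% of all genes. Isg15 rose by 1.08 ± 0.22 and Ifit1 by 1.24 ± 0.23. Isg15 and Ifit1 lost the call without Irradiation 1 (adjusted p = 0.0924 to 0.0956) and both without untreated 1 (adjusted p = 0.0536 to 0.0679).

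The Cxcl1 promoter is shown because 2 matches to the NF-kB motif lie in it (chr5:90890995-90891244, + strand, RefSeq GRCm38.p6, 250 bases before the start, 5′ to 3′, matches in capitals).
Cxcl1: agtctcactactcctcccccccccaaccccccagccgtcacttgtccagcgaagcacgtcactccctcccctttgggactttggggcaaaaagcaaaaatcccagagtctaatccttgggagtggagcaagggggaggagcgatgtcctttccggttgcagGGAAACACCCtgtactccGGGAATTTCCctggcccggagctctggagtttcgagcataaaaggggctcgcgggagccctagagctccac
Among the 13 inflammatory genes that rose and were matched to a promoter, 3 held this motif (23.1%), namely Cxcl1, Il6 and Ccl9, beside 1.63% of all windows. The AP-1 motif was held by 4 of the same 13 (30.8%), beside 5.2% of all windows. The share of genes and the share of windows are not like for like.

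Genes of plasma and acute-phase proteins, several of them known mainly from liver, rose in irradiated lung. Fgg, which encodes the gamma chain of fibrinogen, was at -1.16 and -1.42 in untreated and at 1.87 and 2.8 in irradiated lung, higher on Irradiation 2 than on Irradiation 1. It rose by 3.63 ± 0.67 (adjusted p = 0.00791, and 0.0454 without Irradiation 1). Orm2, an alpha-1-acid glycoprotein, went from -4.29 and -4.53 to -0.66 and -1.97, a rise of 3.1 ± 0.45 (adjusted p = 0.0036). Cfi, complement factor I, went from -2.67 and -3.19 to 0.39 and -0.40, a rise of 2.93 ± 0.34 (adjusted p = 0.00148). All 3 were firm, and their irradiated arrays lay above the untreated ones by more than the replicates differed.

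Further firm genes of this kind were not well above background in either untreated lung, so that their folds are lower bounds, set against the dimmest signal well above background on those arrays. Kng1, the kininogen gene, was at least 13.6-fold higher, Aadac, an esterase of liver and gut, at least 5.15-fold and Fga, the fibrinogen alpha chain, at least 2.95-fold (adjusted p = 0.0036, 0.00158 and 0.00984). With the normexp background correction Fga changed sign. Afp, the fetal plasma protein alpha-fetoprotein, was measured on all 4 arrays and rose by 1.2 ± 0.16 (adjusted p = 0.00225). Tfr2, a receptor that senses plasma iron in liver and erythroid cells, was at least 4.95-fold higher (adjusted p = 0.00148).

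Serum amyloid genes rose most on Irradiation 1. Saa3, an apolipoprotein made outside the liver in inflammation, was at -1.0 and -1.41 in untreated lung and at 4.04 and 1.86 after irradiation, a rise of 4.16 ± 0.79 (adjusted p = 0.00848). Saa1 was at -1.05 and -1.21 and then at 2.39 and 0.56, and Lcn2, a protein that sequesters bacterial iron carriers, at 0.45 and 0.21 and then at 3.33 and 2.21. Saa3, Saa1 and Lcn2 lost the call without Irradiation 1 (adjusted p = 0.0875 to 0.154) and Saa3 and Lcn2 without untreated 2 (adjusted p = 0.0514 to 0.0703). Of 21 tested genes of the acute-phase and plasma protein list 13 rose and 0 fell, and 13 of the 21 were measured on all 4 arrays; the count that rose was 3 without Irradiation 1, 15 without Irradiation 2, 10 without untreated 1 and 5 without untreated 2, and 5 with normexp. The array holds 25 genes of this list, and faint ones could enter the test through irradiated lung, which favours rises among those tested. Abundant or defining liver products did not pass: Alb, serum albumin, was at 0.0099 ± 0.36, Hp, haptoglobin, at -0.49 ± 0.17 and Hpx, hemopexin, at 0.35 ± 0.26. The Saa, Orm, Serpina1 and Mup genes have near-identical copies, and the signal of a probe may come from more than 1 of them.

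Promoters of 3 of these genes are shown because they share matches to TTGCNNAA (TTNNGCAA on the other strand), an 8-base form of the motif of C/EBP factors, which act in the acute-phase response. Each is the 250 bases before the start in RefSeq's GRCm38.p6, 5′ to 3′, matches in capitals: Orm2 at chr4:63362199-63362448, + strand, Saa3 at chr7:46715677-46715926, - strand and Saa1 at chr7:46742981-46743230, - strand.
Orm2: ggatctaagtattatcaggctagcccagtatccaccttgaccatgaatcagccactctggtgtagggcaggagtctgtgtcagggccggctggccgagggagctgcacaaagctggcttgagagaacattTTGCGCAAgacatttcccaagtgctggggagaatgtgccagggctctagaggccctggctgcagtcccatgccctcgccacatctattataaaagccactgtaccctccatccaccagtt
Saa3: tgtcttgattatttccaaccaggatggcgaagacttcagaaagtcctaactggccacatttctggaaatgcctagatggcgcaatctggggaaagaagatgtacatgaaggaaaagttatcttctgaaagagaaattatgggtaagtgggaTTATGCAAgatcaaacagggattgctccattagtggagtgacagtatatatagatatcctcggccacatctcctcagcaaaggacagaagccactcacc
Saa1: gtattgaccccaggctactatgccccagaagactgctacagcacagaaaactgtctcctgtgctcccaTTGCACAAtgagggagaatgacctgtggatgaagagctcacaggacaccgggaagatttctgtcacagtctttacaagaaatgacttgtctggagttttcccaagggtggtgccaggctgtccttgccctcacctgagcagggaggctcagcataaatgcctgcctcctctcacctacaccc
In the windows of 300 bases, 6 of the 9 acute-phase genes that rose and were matched to a promoter held the motif (66.7%): Saa1, Saa2, Saa3, Lcn2, Orm2 and Serpina1d. The share over all windows was 10.8%, which counts windows and not genes, so the shares are not like for like. Of the 18 lipid-handling genes that rose, 5 of 14 with a promoter held it (35.7%), Trem2, Spp1 and Mmp12 among them. The NF-kB motif was held by 2 of the 9 acute-phase genes (22.2%), beside 1.63% of all windows.

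Several mast cell genes were far higher in irradiated lung, and more so on Irradiation 1 than on Irradiation 2. Cma1, a mast cell chymase, was at -2.2 and -2.75 in untreated lung and at 3.87 and 0.78 on Irradiation 1 and Irradiation 2; it rose by 4.8 ± 0.89 (adjusted p = 0.00802, and 0.0924 without Irradiation 1). Mcpt4, a further protease of mast cell granules, was at -3.91 and -4.16 and then at 2.33 and -1.28 (adjusted p = 0.0101, and 0.112 without Irradiation 1). Cpa3, the mast cell carboxypeptidase, was not well above background in untreated lung and was at least 50.5-fold higher after irradiation, or at least 16.4-fold without Irradiation 1 (adjusted p = 0.00533, and 0.0586 without Irradiation 1). Hpgds, the prostaglandin D2 synthase of mast cells and macrophages, was firm, at -2.8 and -3.49 after irradiation and at least 4.41-fold higher (adjusted p = 0.000691).

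Of 11 tested mast cell genes 7 rose and 2 fell; 6 were measured on all 4 arrays, and the count that rose was 1 without Irradiation 1, 8 without Irradiation 2, 4 without untreated 1 and 3 without untreated 2. With normexp 1 rose and 1 fell. The array holds 17 genes of this list. Faint ones, such as Cpa3, could enter the test through a group where they were high, which favours rises among those tested. The 2 that fell were Kit, the stem cell factor receptor, at -1.37 ± 0.31, and Gata2, a transcription factor, at -1.06 ± 0.29; both are also active in other lung cells. Cma1, Mcpt4, Cpa3, Kit and Gata2 lost the call without Irradiation 1 (adjusted p = 0.0586 to 0.349), Kit without untreated 1 (adjusted p = 0.07) and Mcpt4, Kit and Gata2 without untreated 2 (adjusted p = 0.0564 to 0.202).

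Targets of p53 rose in part, 33.3% of those tested beside 7.1% of all genes, and the mRNA of p53 itself did not pass. Psrc1, a p53-responsive gene of the mitotic spindle, was at -1.59 and -1.72 in untreated lung and at 1.26 and 0.50 after irradiation, a rise of 2.54 ± 0.32 (adjusted p = 0.00189). Gdf15, a secreted stress cytokine, went from -1.21 and -0.67 to 1.66 and 1.42, a rise of 2.48 ± 0.30 (adjusted p = 0.00148), and Phlda3, an inhibitor of AKT signalling, from 4.48 and 4.55 to 5.66 and 5.36, a rise of 0.99 ± 0.15 (adjusted p = 0.00435). These 3 were firm, with the irradiated arrays above the untreated ones in each. Cdkn1a, the p21 inhibitor of cell division, was at 1.28 and 1.03 and then at 3.09 and 2.29, a rise of 1.54 ± 0.35 (adjusted p = 0.0157). Cdkn1a lost the call without Irradiation 1 (adjusted p = 0.185) and without untreated 2 (adjusted p = 0.0935).

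Altogether 10 of 30 p53 targets rose and 0 fell, with a median of 0.33; the count that rose was 3 without Irradiation 1, 14 without Irradiation 2, 8 without untreated 1 and 5 without untreated 2. Eda2r, a receptor of the TNF family, rose by 1.99 ± 0.33, Ccng1, cyclin G1, by 1.36 ± 0.26, and Bax, which acts in cell death, by 0.72 ± 0.15. Eda2r, Ccng1 and Bax lost the call without Irradiation 1 (adjusted p = 0.0696 to 0.132) and Bax without untreated 2 (adjusted p = 0.094). Mdm2, the p53 antagonist, was at 0.50 ± 0.20, Bbc3 at 0.16 ± 0.12, Fas at -0.19 ± 0.24 and Trp53 at -0.048 ± 0.23, and none of these 4 passed. Of the senescence and stress list 10 of 20 rose and 0 fell, and the count that rose was 1 without Irradiation 1, 12 without Irradiation 2, 7 without untreated 1 and 4 without untreated 2.

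Some collagen genes rose, with no firm member, and of the fibrillar ones tested 40% rose beside 7.1% of all genes. Col1a1, the main chain of fibrillar collagen I, was at 3.47 and 3.1 in untreated and at 5.15 and 4.41 in irradiated lung, a rise of 1.5 ± 0.39 (adjusted p = 0.0243). Col3a1, collagen III, was at 4.1 and 3.58 and then at 5.71 and 4.94, a rise of 1.49 ± 0.37 (adjusted p = 0.0211). The groups did not overlap for either gene, as for 2936 of the 2937 called genes and 49% of all genes. Col1a1 and Col3a1 lost the call without Irradiation 1 (adjusted p = 0.227 to 0.248), Col1a1 without untreated 1 (adjusted p = 0.0591) and both without untreated 2 (adjusted p = 0.141). Of 10 fibrillar collagen genes 4 rose and 0 fell, Col5a2 and Col2a1 being the others; the count was 0 without Irradiation 1, 6 without Irradiation 2, 2 without untreated 1 and 0 without untreated 2, and 2 with normexp. The median was 1.38 on Irradiation 1 and 0.68 on Irradiation 2.

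Among other matrix genes, Cthrc1 and Thbs2 were firm, besides Spp1 above. Cthrc1, a secreted protein of activated fibroblasts, was at -2.85 and -3.08 in untreated lung and at -1.69 and -1.73 after irradiation, a rise of 1.25 ± 0.18 (adjusted p = 0.00354) and the same on both arrays within 0.038. Thbs2, thrombospondin 2, was not well above background in untreated lung and was at least 4.77-fold higher (adjusted p = 0.00657), but changed sign with the normexp background correction. Tnc, tenascin C, rose by 2.89 ± 0.62, Fn1, fibronectin, by 1.37 ± 0.37 and Ccn5, a secreted matricellular protein, by 1.96 ± 0.33, from -0.35 and -0.036 to 1.77 and 1.76. Of 37 matricellular and elastic fibre genes 11 rose and 4 fell, Ltbp4, which anchors latent TGF-beta to elastic fibres, by -0.84 ± 0.19 and Tnxb, tenascin X, by -1.35 ± 0.34. The number that rose was 3 without Irradiation 1, 15 without Irradiation 2, 6 without untreated 1 and 4 without untreated 2, and 1 fell with normexp. Tnc, Fn1, Ccn5, Ltbp4 and Tnxb lost the call without Irradiation 1 (adjusted p = 0.0535 to 0.283), Fn1, Ltbp4 and Tnxb without untreated 1 (adjusted p = 0.0684 to 0.108) and Tnc, Fn1, Ltbp4 and Tnxb without untreated 2 (adjusted p = 0.0618 to 0.114).

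Genes of the TGF-beta pathway itself moved in both directions, 17.9% up and 21.4% down beside 7.1% and 7.29% of all genes. Tgfb1 was at -0.074 and 0.10 in untreated lung and at -0.26 and 0.46 in irradiated lung, a difference of 0.088 ± 0.20 (adjusted p = 0.781), so that the arrays overlapped. Of 28 ligands, receptors and activators 5 rose and 6 fell; their median, -0.039, was above 0 with cyclic loess and with normexp. The counts were 0 and 0 without Irradiation 1, 11 and 9 without Irradiation 2, 2 and 2 without untreated 1, 1 and 2 without untreated 2, and 4 and 1 with normexp. Inhba, which encodes the subunit of activin A, rose by 2.39 ± 0.45, Itgb6, the integrin chain that activates latent TGF-beta, by 1.96 ± 0.43 and the receptor gene Tgfbr2 by 0.62 ± 0.14. Bmp6, a bone morphogenetic protein, changed by -1.74 ± 0.48, Acvrl1, the endothelial receptor ALK1, by -1.38 ± 0.34 and Bambi, a decoy receptor, by -0.77 ± 0.15. Inhba, Itgb6, Tgfbr2, Bmp6, Acvrl1 and Bambi lost the call without Irradiation 1 (adjusted p = 0.0631 to 0.279), Tgfbr2 and Bmp6 without untreated 1 (adjusted p = 0.0557 to 0.0716) and Itgb6, Tgfbr2, Bmp6 and Acvrl1 without untreated 2 (adjusted p = 0.0778 to 0.171). Of 27 genes that respond to TGF-beta 9 rose and 0 fell, and the count that rose was 1 without Irradiation 1, 13 without Irradiation 2, 5 without untreated 1 and 3 without untreated 2.

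Of 14 genes of the PDGF family and the kinases that imatinib inhibits, 1 rose and 1 fell, shares near those of all genes, 7.1% and 7.29%. Pdgfc, a PDGF ligand, was at -2.68 and -3.14 in untreated lung and at -1.01 and -1.54 after irradiation, a rise of 1.63 ± 0.25 (adjusted p = 0.00466); Kit, given above, was the gene that fell. The ligands Pdgfa and Pdgfb were at -0.079 ± 0.11 and -0.83 ± 0.70, and the receptors Pdgfra and Pdgfrb at 0.34 ± 0.27 and -0.14 ± 0.14, none past the threshold. Igf1, a growth factor made by macrophages and fibroblasts, went from -1.21 and -1.44 to 2.41 and 1.29, a rise of 3.17 ± 0.54 (adjusted p = 0.00598). Pdgfc, Igf1 and Kit lost the call without Irradiation 1 (adjusted p = 0.0518 to 0.18), Kit without untreated 1 (adjusted p = 0.07) and Kit without untreated 2 (adjusted p = 0.0582).

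Among aldo-keto reductases, enzymes that reduce aldehydes and ketones, 4 were firm; they were picked after their values were seen. Akr1b8 was at 2.9 and 2.96 in untreated and at 5.1 and 4.0 in irradiated lung, a rise of 1.62 ± 0.25 (adjusted p = 0.00466). Akr1c12 went from -2.73 and -3.1 to -0.51 and -1.58, Akr1c13 from -0.22 and -0.48 to 1.41 and 0.43 and Akr1c19 from -0.44 and -0.72 to 1.02 and 0.23, each higher on Irradiation 1. Their rises were 1.87 ± 0.24, 1.27 ± 0.22 and 1.21 ± 0.19, with adjusted p-values of 0.00202, 0.00613 and 0.00467. Of the other 9 members tested, Akr1b10 rose by 0.57 ± 0.16 and Akr1a1 by 0.30 ± 0.088 (adjusted p = 0.0346 and 0.0382), and Akr1b7 fell, at -1.0 ± 0.27 (adjusted p = 0.029). Akr1b10, Akr1a1 and Akr1b7 lost the call without Irradiation 1 (adjusted p = 0.217 to 0.346), all without untreated 1 (adjusted p = 0.0775 to 0.11) and all without untreated 2 (adjusted p = 0.0954 to 0.175). Akr7a5, Akr1c14, Akr1b3 and Akr1e1 were at -0.76 ± 0.34, 0.21 ± 0.27, 0.14 ± 0.15 and 0.34 ± 0.17 and did not pass, and Akr1c21 and Akr1c6 were not well above background on any of the 4 arrays. The Akr1c genes are close copies of each other, and their probes may share signal. Of 23 targets of NRF2, the regulator of antioxidant enzymes, 8 rose, Hmox1, heme oxygenase, by 0.83 ± 0.20 and Me1, malic enzyme, by 1.19 ± 0.22; the count was 2 without Irradiation 1, 9 without Irradiation 2, 3 without untreated 1 and 4 without untreated 2. Me1 lost the call without Irradiation 1 (adjusted p = 0.0574), Hmox1 without untreated 1 (adjusted p = 0.101), Me1 without untreated 2 (adjusted p = 0.0569) and Hmox1 without Irradiation 2 (adjusted p = 0.0507). The antioxidant response element core is TGACNNNGC (GCNNNGTCA on the other strand). It was found in 4 of the 7 NRF2 targets that rose and were matched to a promoter (57.1%), beside 12.4% of all windows. The AP-1 motif was found in 3 of the same 7 (42.9%), beside 5.2% of all windows. The share of genes and the share of windows are not like for like.

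Other firm genes belong to none of the lists. Ankrd34b, an ankyrin repeat gene, was not well above background in untreated lung and was at least 8.27-fold higher after irradiation (adjusted p = 0.00435), at -0.65 and -3.82 on Irradiation 1 and Irradiation 2. Gpr34, a receptor of microglia and macrophages for lysophosphatidylserine, rose by 2.32 ± 0.34, with 1 untreated array not well above background, Cysltr1, the cysteinyl leukotriene receptor, by 1.39 ± 0.21 and Tbxas1, thromboxane synthase, by 1.09 ± 0.16. Apod, a lipid carrier of stressed tissue, was at -3.82 and -4.08 and then at -2.46 and -2.36, a rise of 1.53 ± 0.24. Ddias, which protects dividing cells from DNA damage-induced death, was at least 3.57-fold higher, and Zranb3, an enzyme of stalled replication forks, rose by 1.97 ± 0.24, from -2.28 and -2.43 to -0.24 and -0.53.

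Of the 100 firm genes 28 fell. Tent5c, a cytoplasmic poly(A) polymerase, was at 2.39 and 2.53 in untreated and at 0.18 and 1.19 in irradiated lung, a change of -1.77 ± 0.28 (adjusted p = 0.00466). Galnt15, which starts O-linked glycan chains, went from 2.81 and 2.44 to 0.87 and 1.16, and Ndrg2, a stress- and growth-regulated gene, from 2.84 and 2.93 to 1.4 and 1.56, changes of -1.61 ± 0.25 and -1.41 ± 0.20 (adjusted p = 0.00466 and 0.00354). In all 3 the irradiated arrays lay below the untreated ones, and within 0.29 of each other for Galnt15. Ppp1r1a, an inhibitor of protein phosphatase 1, changed by -1.7 ± 0.27, the homeobox gene Tlx2 by -1.95 ± 0.25, with 1 irradiated array not well above background, Cldn15, a tight-junction claudin, by -1.0 ± 0.14, and Fancb, a member of the Fanconi anaemia repair complex, by -1.02 ± 0.14. Among called genes with a symbol measured on all 4 arrays, Apol11b, an apolipoprotein L gene, had the largest fall, a change of -3.19 ± 0.78; it was not firm (adjusted p = 0.0204, and 0.201 without Irradiation 1).

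Clock genes were lower mainly on Irradiation 1. Per1, a repressor of the circadian clock that also responds to glucocorticoids, was at 2.84 and 2.25 in untreated lung and at -1.03 and 0.84 after irradiation, a change of -2.64 ± 0.53 (adjusted p = 0.0102). Tef, an output transcription factor of the clock, was at 3.0 and 2.78 and then at 1.54 and 2.49, a change of -0.87 ± 0.25 (adjusted p = 0.035). Per1 and Tef lost the call without Irradiation 1 (adjusted p = 0.125 to 0.404), both without untreated 1 (adjusted p = 0.0555 to 0.132) and Tef without untreated 2 (adjusted p = 0.0988). Nr1d1, the repressor REV-ERB alpha, was at 0.77 and 1.06 in untreated lung and at -1.76 and 1.03 in irradiated lung, so that Irradiation 2 alone lay within the untreated range; Dbp, a further output factor, did likewise, at 5.77 and 5.41 and then at 3.63 and 5.59. Neither passed. Of 20 clock genes 1 rose and 7 fell, with medians of -1.1 on Irradiation 1 and -0.18 on Irradiation 2; the number that fell was 0 without Irradiation 1, 12 without Irradiation 2, 1 without untreated 1 and 2 without untreated 2, and 4 with normexp. Of 16 glucocorticoid-responsive genes 3 rose and 6 fell, with a median of -0.53 that was above 0 with normexp; 0 rose and 0 fell without Irradiation 1, 2 and 0 without untreated 1, 0 and 5 without untreated 2, and 3 and 1 with normexp, beside 7.1% and 7.29% of all genes in the full fit. The time of day of tissue collection was not given in the sources used here.

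The promoters of Per1 and Tef are shown because both carry the E-box CACGTG through which the clock activator pair acts. Each is the 250 bases before 1 of 2 starts in RefSeq's GRCm38.p6, 5′ to 3′, with the match in capitals: Per1 at chr11:69098699-69098948, + strand and Tef at chr15:81802423-81802672, + strand.
Per1: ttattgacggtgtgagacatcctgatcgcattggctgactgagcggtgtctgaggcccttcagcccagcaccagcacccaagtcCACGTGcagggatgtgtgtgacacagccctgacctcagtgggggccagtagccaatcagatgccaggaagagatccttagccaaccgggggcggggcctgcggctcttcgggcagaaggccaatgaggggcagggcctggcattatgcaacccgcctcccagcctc
Tef: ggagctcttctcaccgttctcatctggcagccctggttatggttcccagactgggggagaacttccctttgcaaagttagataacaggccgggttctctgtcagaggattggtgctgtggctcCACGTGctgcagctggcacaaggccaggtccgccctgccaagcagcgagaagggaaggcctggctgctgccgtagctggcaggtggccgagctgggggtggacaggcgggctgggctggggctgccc
These were the 2 of 6 clock genes that fell and had a promoter in which the E-box was found (33.3%), beside 7.15% of all windows. The antioxidant response element core TGACNNNGC was found in 3 of the same 6 (50%), beside 12.4% of all windows. Per1 and Tef each have 2 starts, so these shares of genes are not like for like with the shares of windows.

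Some endothelial genes fell, 30% of those tested beside 7.29% of all genes, and none was firm. Ramp2, a partner of the adrenomedullin receptor, was at 6.61 and 6.64 in untreated and at 5.49 and 6.11 in irradiated lung, a change of -0.82 ± 0.16 (adjusted p = 0.00829), and Aplnr, the apelin receptor, changed by -1.29 ± 0.30 (adjusted p = 0.018). The angiopoietin receptor genes Tek and Tie1 changed by -0.96 ± 0.26 and -0.95 ± 0.28. Ramp2, Aplnr, Tek and Tie1 lost the call without Irradiation 1 (adjusted p = 0.0631 to 0.353), Aplnr, Tek and Tie1 without untreated 1 (adjusted p = 0.0643 to 0.115) and Aplnr, Tek and Tie1 without untreated 2 (adjusted p = 0.0869 to 0.135). Of 30 endothelial genes 0 rose and 9 fell, with medians of -0.74 on Irradiation 1 and -0.18 on Irradiation 2, and the number that fell was 0 without Irradiation 1, 17 without Irradiation 2, 3 without untreated 1 and 2 without untreated 2, and 1 with normexp. The list's median was -0.53, and above 0 with normexp. The pan-endothelial gene Pecam1 was at -0.67 ± 0.24 and Vegfa, the endothelial growth factor, at -0.036 ± 0.12, neither past the threshold.

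Genes of red cells were lower on both irradiated arrays. Alas2, the heme synthesis enzyme of erythroid cells, was at 4.62 and 4.9 in untreated lung and at 1.91 and 2.73 after irradiation, Hba-a1, alpha globin, at 8.37 and 8.61 and then at 7.03 and 7.15, and Slc4a1, the red cell anion exchanger, at 0.26 and -0.086 and then at -2.7 and -1.69. Their changes were -2.44 ± 0.55, -1.4 ± 0.38 and -2.28 ± 0.72, with adjusted p-values of 0.0151, 0.0299 and 0.0477. Alas2, Hba-a1 and Slc4a1 lost the call without Irradiation 1 (adjusted p = 0.167 to 0.355), all without untreated 1 (adjusted p = 0.0508 to 0.146) and all without untreated 2 (adjusted p = 0.0858 to 0.149). In 8 of 10 erythroid genes both irradiated arrays lay below both untreated arrays, as in 26.5% of all genes. The mean level of the list was -0.57 and -0.94 in the untreated lungs and -2.29 and -2.06 on Irradiation 1 and Irradiation 2. Heart muscle genes, which can enter a lung sample with pulmonary vein or heart tissue, also differed in level: their mean was -0.31 and -0.017 in the untreated lungs and -0.48 and -1.46 on Irradiation 1 and Irradiation 2, and 15 of 21 had both irradiated arrays lower, though only 1 passed, Nppb, which rose by 1.93 ± 0.52. Nppb lost the call without Irradiation 1 (adjusted p = 0.215), without untreated 1 (adjusted p = 0.0902) and without untreated 2 (adjusted p = 0.121). The part of blood or heart tissue in the differences above was not tested.

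None of 27 T and NK cell genes and none of 20 B and plasma cell genes was called, with medians of 0.085 and -0.031, whose signs turned with normexp. Among 12 neutrophil genes, whose median was -0.96, only Lcn2 was called, and S100a8, a calcium-binding protein of neutrophils, was at 2.25 and 3.44 in untreated and at 2.19 and 1.43 in irradiated lung. The surfactant gene Sftpc was at -0.74 ± 0.26 and the ciliated cell regulator Foxj1 at -0.01 ± 0.18, neither past the threshold. Scgb3a2, a secretoglobin of club cells, fell by 1.01 ± 0.29 (adjusted p = 0.0376). Scgb3a2 lost the call without Irradiation 1 (adjusted p = 0.312), without untreated 1 (adjusted p = 0.0741) and without untreated 2 (adjusted p = 0.198). Of the type II cell list 1 of 18 genes rose and 0 fell, and of the type I cell list 1 and 1 of 16. Of the club and goblet cell list 0 and 2 of 20 did so, and of the ciliated cell list 0 and 3 of 22. Over all genes 7.1% rose and 7.29% fell. The shares of the type I list, 6.25% and 6.25%, and the share of the type II list that rose, 5.56%, were near these. Both irradiated arrays lay below both untreated arrays in 14 of the 22 ciliated cell genes and 13 of the 20 club and goblet cell genes, beside 26.5% of all genes, with medians of -0.35 and -0.42 that were above 0 with normexp. No gene of these 2 lists fell without Irradiation 1.

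Proliferation genes were higher mainly on Irradiation 1, and 16.7% of those tested rose beside 7.1% of all genes. Their median was 1.37 on Irradiation 1 and 0.18 on Irradiation 2, and 6 of 36 rose, 0 without Irradiation 1, 33 without Irradiation 2, 2 without untreated 1 and 1 without untreated 2, and 2 with normexp. Mki67, a marker of dividing cells, was at -0.47 and -0.84 in untreated lung and at 1.35 and -0.30 on Irradiation 1 and Irradiation 2, a difference of 1.18 ± 0.39 that did not pass (adjusted p = 0.0578). Cdk1, the kinase that starts mitosis, was at -4.75 and -3.91 and then at -1.11 and -2.81 with 1 untreated array not well above background, and rose by 2.37 ± 0.49 (adjusted p = 0.0116). Cdk1 lost the call without Irradiation 1 (adjusted p = 0.149) and without untreated 1 (adjusted p = 0.0691).

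**Figure D4:**
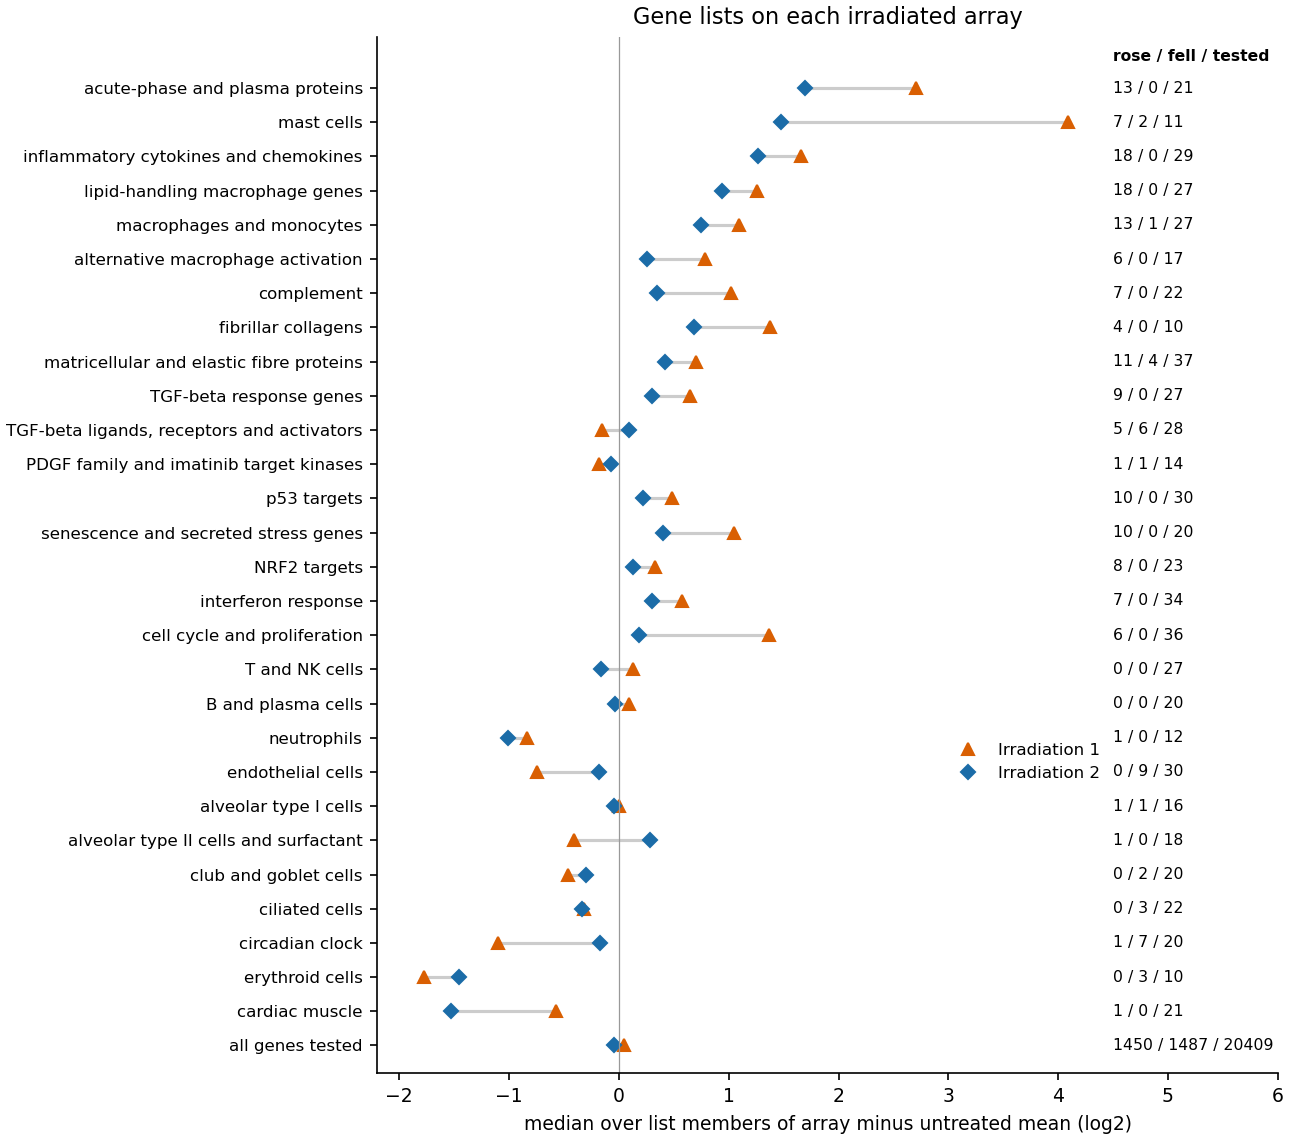
Median over the tested members of each gene list of the difference from the untreated mean (log2, x axis) on Irradiation 1 (triangles) and Irradiation 2 (diamonds), with the numbers that rose, fell and were tested at the right. Acute-phase, mast cell, chemokine and macrophage lists lie to the right on both arrays, while proliferation genes lie to the right and clock genes to the left chiefly on Irradiation 1.

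A few genes differed widely between the irradiated arrays. Pigt, a subunit of the enzyme that attaches proteins to lipid anchors, was at 8.68 and 9.5 in untreated lung and at 0.32 and 8.31 on Irradiation 1 and Irradiation 2, and Lars2, the mitochondrial leucyl-tRNA synthetase, at 4.75 and 9.26 and then at -1.34 and 6.05. Neither passed (adjusted p = 0.0675 and 0.187), and Lars2 also differed between the untreated arrays. Hnrnpa0, an RNA-binding protein gene, Zbtb7a, a transcriptional repressor gene, and Sema3c, a semaphorin gene, were likewise lower on Irradiation 1, at -1.9, -2.57 and -2.7 against 1.31, 0.53 and 0.32 on Irradiation 2. A second probe for Sema3c was called, in the direction opposite to its difference from untreated lung. In the other direction Mcpt4 and Fcer1a were higher on Irradiation 1 than on Irradiation 2 by 3.61 and 3.39, the 2 largest such gaps among genes with a symbol measured on all 4 arrays.

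The same contrast, irradiated minus unirradiated, can be read in 5 drug groups that share no array with the comparison above. The Ly group lies on the same slides as the comparison without drug and the others on other slides, and each again has its irradiated and unirradiated lungs on different slides. Of the 100 firm genes, 93 had the same sign in the Ly group, 88 with Imatinib, 77 with Su, 94 with Ly+Imatinib and 68 with Ly+Su, beside 64.9%, 55.5%, 47.6%, 60.7% and 48.7% of all genes tested. In 57 of the 100 the sign was the same in all 5, as it was in 21.6% of all genes. The numbers of genes called in those groups were 9 with Ly (0.0441%), 573 with Imatinib (2.81%), 2115 with Su (10.4%), 730 with Ly+Imatinib (3.58%) and 690 with Ly+Su (3.38%).

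**Figure D5:**
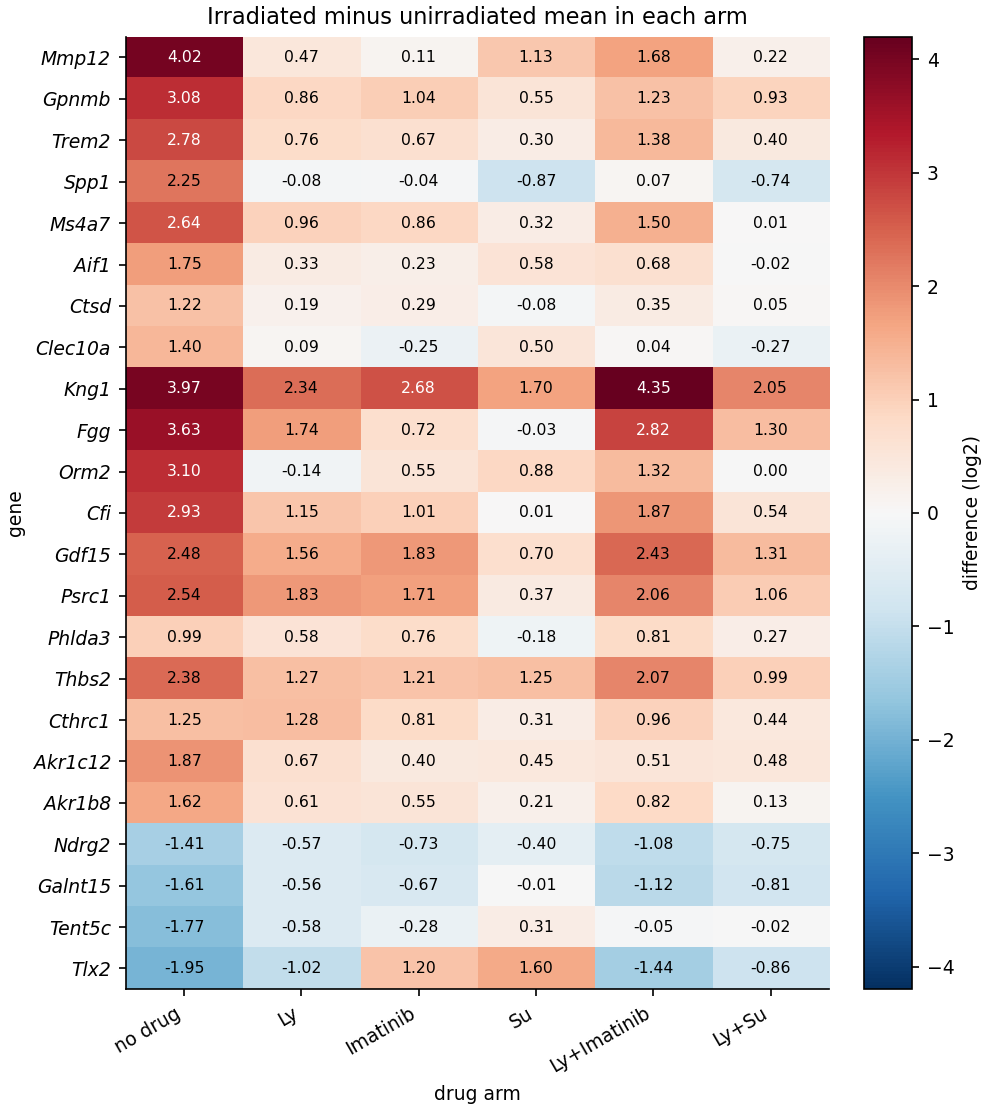
Irradiated minus unirradiated mean (log2, colour and printed value) of 23 firm genes without drug and in each of the 5 drug groups, n = 2 arrays per group mean. Psrc1, Gdf15, Thbs2 and Kng1 are higher with irradiation in every group, and Spp1 is 2.25 without drug and at or below 0.07 in every drug group; Kng1 and Thbs2 were not well above background in untreated lung, so their values without drug rest on signals near background.

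The difference between the response without drug and the mean of the 5 drug groups was tested in the same fit, and 1003 genes (4.91%) passed. In 967 of these the difference from the drug groups had the same sign as the change without drug, which was not always the larger in size. Both rest on the same 4 arrays, so that agreement in sign is favoured. With normexp 8 genes passed, and with array weights 3. The genes given next were taken from the firm ones, a choice made on the same 4 arrays that favours a larger change without drug, so their values are a description. Spp1 rose by 2.25 ± 0.27 without drug and was at -0.33 in the mean of the drug groups, a difference of 2.58 ± 0.30. For Kcne3, a potassium channel subunit, the difference was 1.59 ± 0.17, and for Mmp12, not well above background on 1 untreated array, 3.3 ± 0.46.

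Some firm genes were higher with irradiation in each of the drug groups too. Gdf15 was at 1.57 in the mean of the drug groups, against 2.48 without drug, and Psrc1 at 1.41 against 2.54. The difference of these 2 did not pass (adjusted p = 0.0882 and 0.0644), which does not show that the responses were equal. Kng1 and Thbs2 also had the same sign in all 5 drug groups.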

How the data were processed

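Total RNA of 24 lung samples was measured on single-colour Agilent arrays. Per the file headers, the authors' deposited intensity values come from Agilent Feature Extraction 9.1.3.1, which subtracts background and removes spatial trends. The processed signal was taken to log2 and the 75th percentile of the same array subtracted, control and outlier spots were left out, spots of a probe were averaged, and 1 probe was kept per gene. A deposited series table of the same intensity values served as an alternative. Of 27401 genes, 20409 passed the filter on background. limma 3.58.1 in R 4.3.3 was fitted to all 24 arrays with 1 mean per group and Benjamini-Hochberg adjustment over all genes tested. Simulated data for irradiated and untreated lung over 20409 genes served as a check. The fit recovered 52% of genes changed by 1 and 85% of genes changed by 2 on the log2 scale. The simulation gave all arrays of a gene the same spread. In the data the Irradiation replicates differed by a median of 0.454, against 0.0934 to 0.259 in the other groups. These recovered shares may therefore not hold for the comparison reported here.

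The labels call the 2 arrays of a group biological replicates, and precision is limited by that number. The samples, gene lists and rules were chosen with earlier results of these data known. Genes named are the 12 highest and 12 lowest differences among called genes measured on all 4 arrays, and among firm genes; up to 4 of each list by size; a fixed set of p53, collagen, TGF-beta and PDGF genes; the 5 highest and 5 lowest differences from the drug groups; and the 8 widest gaps each way between the irradiated arrays. Genes named beside these, such as Ctsd, Cd63, Apoe, the Akr1c genes, Afp, Ccl2 and list members that did not pass, were chosen after their values were seen. Promoter sequences are those of RefSeq for GRCm38.p6; 64 of the 79 firm genes with a symbol were matched to one. The genome build behind the array design was not given in the sources used here. Alternatives were quantile and cyclic loess normalization, normexp background correction, other filters, array weights, the replicate number as a block, every probe, and leaving out each array.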

Additional observations from a re-analysis of the deposited data

Results flagged for a closer look

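The response to irradiation without drug differed from the mean response of the 5 drug groups in 1003 genes (limma interaction term, adjusted p under 0.05). Most of these 1003 genes did not pass without Irradiation 1, a fit that leaves 1 array in that group. The largest positive differences were Chl1, a neural adhesion gene, at 4.67 (adjusted p = 0.0412), Cpa3, the mast cell carboxypeptidase, at 4.07 (0.0467), Saa3, a serum amyloid gene, at 3.96 (0.0328), Mup1, a major urinary protein gene, at 3.93 (0.0461) and Cma1, the mast cell chymase, at 3.76 (0.0448). Chl1, Cpa3 and Mup1 were not well above background in untreated lung, so that their differences depend on signals near background. Each of these 5 genes was higher on Irradiation 1 than on Irradiation 2.

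The largest negative differences were Fthl17e at -4.07, Caskin1 at -3.78, Zfp652 at -2.98, Apon at -2.97 and Tfap2e at -2.85, with adjusted p-values of 0.0365, 0.0393, 0.0465, 0.0433 and 0.0438. Apon and Caskin1 were not well above background in irradiated lung. Tfap2e was at 0.52 ± 0.66 without drug and at 3.37 in the mean of the drug groups, with the same sign in all 5.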

How the results depend on the processing

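The count of called genes kept within 1.5 times of 2937 with quantile normalization, cyclic loess, the deposited series table, the replicate block, every probe and genes measured on all 4 arrays. It was 1435 (789 higher, 646 lower) with normexp, 1875 (902 lower) with no filter on background, 1 (1 higher, 0 lower) with array weights and 0 (0 higher, 0 lower) with the arrays of the 2 groups alone. Leaving out 1 array gave 165 to 8618 genes, 111 to 4601 higher and 54 to 4017 lower; the lowest came without Irradiation 1 and the highest without Irradiation 2, and it was 972 without untreated 1 and 633 without untreated 2. The cause of these changes was not tested.

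The count that differed from the drug groups, 1003, was 390 (202 higher, 188 lower) with quantile normalization, 615 (276 lower) with cyclic loess, 8 (7 higher, 1 lower) with normexp, 3 (1 higher, 2 lower) with array weights and 209 (73 higher, 136 lower) with no filter. Genes measured on all 4 arrays gave 647 higher, and every probe 999 lower. Leaving out 1 array gave 64 to 8482 genes, 22 to 4451 higher and 42 to 4031 lower; it was 415 without untreated 1 and 146 without untreated 2. With the replicate block it was 1694 (776 higher, 918 lower). Same-numbered untreated and irradiated arrays deviated together with a correlation of 0.216. Over 66 pairs of groups the median was 0.0357 and the range -0.202 to 0.251, and 20 pairs were over 0.1. Whether same-numbered samples share more than a number was not tested. The block gave 1700 higher and 1682 lower in the main comparison. Slide as a random block could not be fitted, since each group lies on 1 slide.

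Normexp moved the median of all genes to -0.42, and values with it are given relative to that. Against the main difference, 14 named genes then changed sign: Pnoc -0.43, Fga -0.45, Gtse1 -0.74, Il6 -0.075, Cdkn2a -0.77, Loxl3 -0.20, Thbs2 -0.021, Aurkb -0.79, Slc7a11 -0.73, Ahrr -1.06, Cav1 0.14, Dnaic1 0.048, Hsp90ab1 0.15 and Hspb1 0.14. Of 234 genes named by rule, 139 were called with all arrays; without Irradiation 1, 106 calls were lost and 1 gained, and without Irradiation 2, 1 was lost and 43 gained. Signals near background limit the genes given as lower bounds.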
